A study of Homo sapiens with 24 samples.

Results

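The H133W mutant of sirtuin 6 (SIRT6) was over expressed in HEK293 cells, and the transcripts of these cells were compared with those of cells that received the empty pCDNA3 plasmid, neither being stimulated with TNFα. The 6 arrays used, 3 of each kind, were chosen by their labels from the 24 arrays of the study. HEK293 is a human embryonic kidney line. All 6 wells took up complexes of FugeneHD with DNA for 24 h and then medium with PBS and BSA in place of TNFα. The H133W plasmid was pCDNA3-Flag-SIRT6 H133W, which carries a Flag tag and a histidine to tryptophan change at position 133 of the protein. The empty vector carries no SIRT6 sequence, so that these 6 arrays alone cannot tell the mutation from the over expression of a SIRT6 protein. Unstimulated cells with pCDNA3-Flag-SIRT6 WT, unstimulated untransfected cells, and H133W and empty vector cells given 10 ng/ml TNFα, 3 arrays each, were used where named. Transfection was transient and reached only some of the cells, and RNA came from the whole well, so that a large change in few cells cannot be told apart from a small change in many.

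SIRT6 is a nuclear enzyme of the sirtuin family, which uses NAD to remove acetyl and longer acyl groups from lysines, histone H3 among its substrates. Histidine 133 lies in the catalytic centre and is conserved in sirtuins, and its replacement abolishes the deacetylase activity. Misfolded protein in the cytosol activates HSF1, which turns on heat shock genes. Several other kinds of stress lead to phosphorylation of eIF2α and so to the integrated stress response, in which ATF4 and CHOP turn on genes of amino acid supply, redox balance and feedback.

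Levels are log2 values normalised by RMA, a method for Affymetrix arrays, and a difference of 1 is a 2-fold change. A transcript, read by a probe set, was taken as upregulated or downregulated where limma gave an adjusted p under 0.05 and the fold change was over 1.5. HEK293 markers were checked first. Of 10, NEFL, VIM, CDH2, LIN28B, KRT18 and SOX11 had mean levels from 10.17 to 12.34 in empty vector cells, whereas KRT19 (3.93), PAX2 (5.17) and NEFM (5.35) were low. No marker of HEK293 cells, blood cells (9 measured) or fibroblasts (12 measured) passed between H133W and empty vector cells. The summed log2 level of the fibroblast markers was 60.5 to 62.6 on the empty vector arrays and 57.7 to 59.8 on the H133W arrays, and no part of it in the results was tested. Empty vector replicate 2 had the largest difference between the 3′ and 5′ ends of β-actin of the 6 arrays, a log2 value of 2.05 against 1.33 to 1.64, and the lowest array weight, 0.383.

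SIRT6 itself is read by 2 probe sets. In the brighter, the empty vector arrays read 7.76, 8.68 and 9.31, the H133W arrays 9.86, 9.77 and 9.57, and the untransfected arrays had a mean of 8.74 (SD 0.64, n = 3). The H133W arrays were all above the empty vector arrays, which themselves spread widely. The difference was 1.15 (SE 0.29, adjusted p = 0.0357), and it did not pass when any 1 of the H133W arrays, or empty vector replicate 1 or 2, was left out. In the other the empty vector arrays read 8.20, 8.45 and 8.40 and the H133W arrays 8.44, 8.47 and 8.38, which overlapped (0.08, adjusted p = 0.775). Whether either probe set reads the sequence the plasmid carries is not given in the sources used here. Of the other 6 sirtuins none passed, and their differences ran from −0.29 (SIRT5) to 0.10 (SIRT4). By the probe set of highest mean no sirtuin, SIRT6 included, passed between wild type SIRT6 and empty vector cells.

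H133W upregulated far more transcripts than it downregulated. Of 42898 named probe sets 338 rose (0.788%) and 31 fell (0.0723%), and 6931 were at an unadjusted p under 0.05. The median rise was 0.75 and the median fall −0.65, and 54 rises but only 1 fall exceeded 2-fold. In all 369 the 3 arrays of the groups did not overlap, which was so in 24.3% of named probe sets. Transcripts that rose had a median level of 6.51 in empty vector cells and those that fell 5.65, against 5.97 for all named probe sets. With any 1 of the 6 arrays left out, 203 of the 338 rises but only 2 of the 31 falls passed every time. The falls numbered 14 without empty vector replicate 2, 10 without H133W replicate 3 and 59 without empty vector replicate 3.

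**Figure D1:**
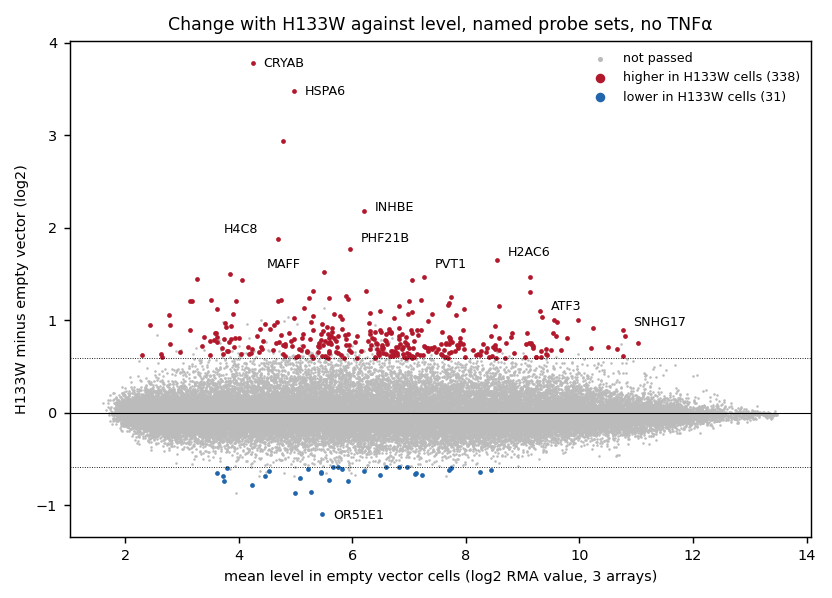
Difference between H133W and empty vector cells (log2, vertical axis) against the mean level in empty vector cells (log2 RMA value, horizontal axis) for each named probe set, without TNFα. Red points are the 338 that rose, blue points the 31 that fell, and the dotted lines mark the 1.5-fold limits, so that CRYAB (3.78) and HSPA6 (3.48) stand well above all others and most changes are rises.

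CRYAB and HSPA6, both of the heat shock response, rose most. CRYAB encodes αB-crystallin, a small heat shock protein that holds unfolding proteins in solution. Its level was 4.19, 4.29 and 4.27 in empty vector cells and 8.03, 7.98 and 8.05 in H133W cells. Wild type SIRT6 cells, at 4.84, 4.63 and 4.71, lay a little above the empty vector cells and far below H133W cells. The rise with H133W was 13.7-fold, or 3.78 on the log2 scale (SE 0.0829, adjusted p = 1.62e-16).

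HSPA6 encodes an HSP70 chaperone that most cells hardly make until they are stressed. The empty vector arrays read 4.89, 5.12 and 4.89, the SIRT6 arrays 5.61, 5.46 and 5.47, and the H133W arrays 8.44, 8.45 and 8.45. The H133W arrays stood apart from every other unstimulated array, and the difference from empty vector was 3.48 (SE 0.15, adjusted p = 3.14e-11). A second probe set gave a rise of 2.94 (SE 0.18). HSPA6 has a near-identical copy, HSPA7, whose transcripts these probe sets may also read.

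HSF1 binds repeats of a short unit in alternating directions, the heat shock element. In the promoter of HSPA6 (RefSeq, GRCh38.p14, plus strand) the letters GAANNTTCNNGAA, sought on both strands, were found at positions −74 to −62, where 1 is the transcription start and −1 the base before it. The stretch around them, chr1:161524436-161524508, is shown because HSPA6 was the gene with the second largest rise, with the element in capitals.
HSPA6: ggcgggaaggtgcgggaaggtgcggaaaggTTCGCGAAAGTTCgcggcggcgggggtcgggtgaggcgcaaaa
Among 27305 promoters of the same length, 250 bases before to 50 after the start, 133 held these letters (0.487%). Of 28 promoters of measured heat shock genes 5 held them (17.9%), and besides HSPA6 these were CHORDC1, DNAJA1, DNAJB6 and SERPINH1, none of which passed (0.20, 0.12, 0.17 and 0.21). By any of their probe sets 260 genes rose (1.31%), and of the 202 of them whose promoter was at hand 2 held the letters (0.99%, against 0.429% of the 15384 promoters of measured genes), HSPA6 and APTX. APTX, a DNA repair gene, rose by 0.71 in a dim probe set, and its match is the same stretch as that of DNAJA1, its neighbour on the other strand.

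Most other measured heat shock genes moved little. Of 38 listed genes 32 had a probe set that names them alone and were counted. HSPA1A, HSPA1B and HSPA8, of the HSP70 family, were not among the 32, and nothing is said of them. By the probe set of highest mean 0.804% of all 19775 genes rose and 0.0607% fell, the background of each list count below. Of the 32 heat shock genes 3 rose, none fell and 29 did not pass. The third was ZFAND2A (AIRAP), which acts at the proteasome and went from 8.97, 9.12 and 9.09 to 9.79, 9.78 and 9.84. By its second probe set DNAJB1, an HSP40 co-chaperone, also rose (0.68, SE 0.0771), from 9.49 on each empty vector array to 10.18, 10.13 and 10.19, while its brighter probe set gave 0.41. The co-chaperone BAG3 (0.22, adjusted p = 0.323), the small heat shock protein HSPB1 (0.19, adjusted p = 0.376) and HSPH1 (0.18, adjusted p = 0.381), which were chosen after their values were seen, did not pass. The median over the list was 0.0858, and −0.035 over all genes.

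**Figure D2:**
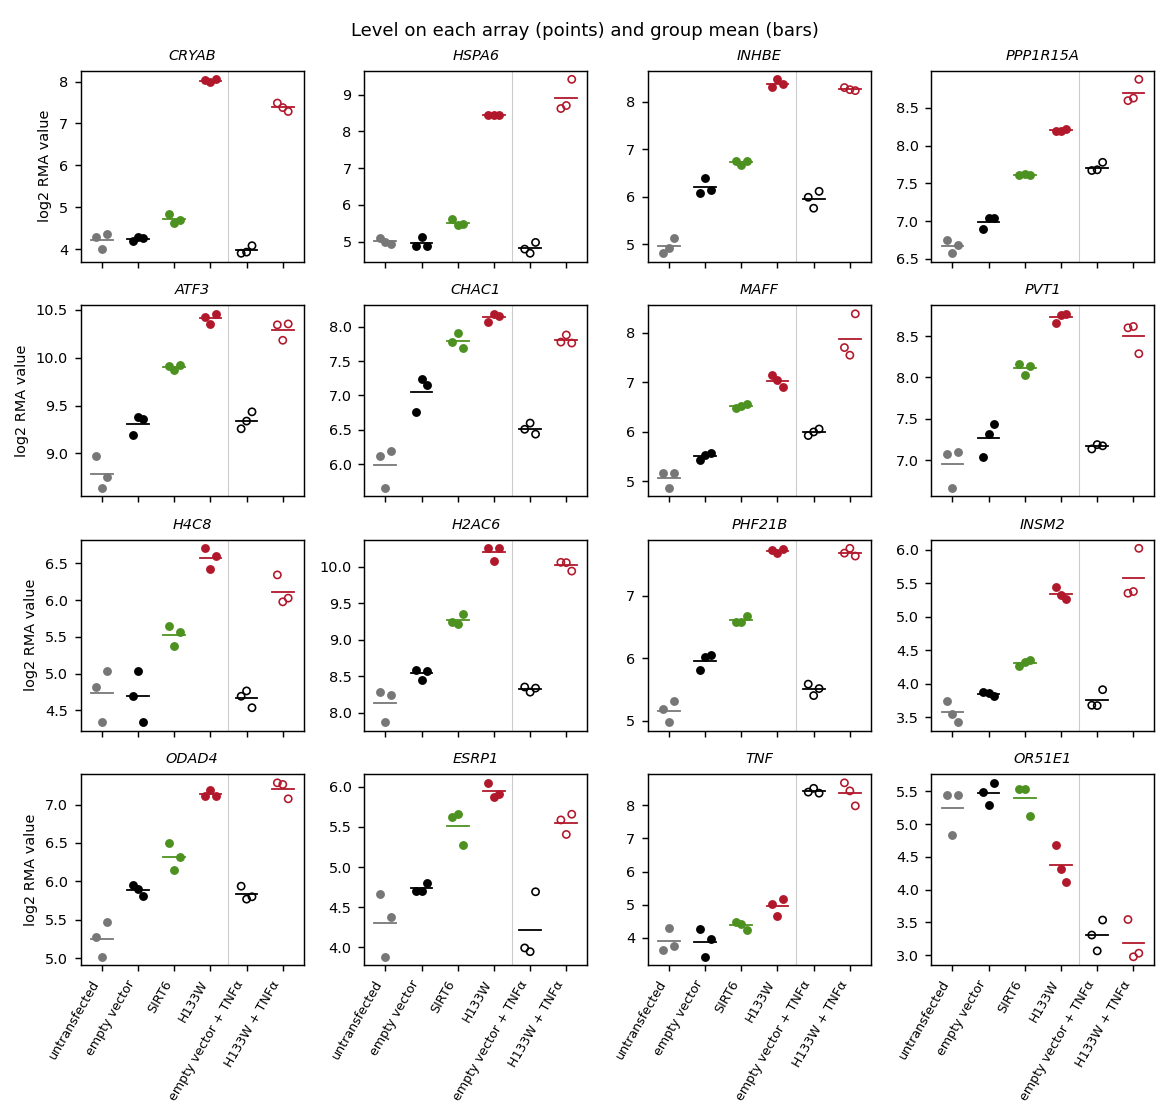
Log2 RMA value (vertical axis) of 16 genes on each of 18 arrays, by group: filled points are unstimulated cells, open points cells with TNFα, and bars are group means. CRYAB and HSPA6 lie near the untransfected level in empty vector cells and rise in H133W cells with or without TNFα, while the H133W and empty vector points of TNF and OR51E1 are apart in unstimulated cells and overlap with TNFα.

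In the integrated stress response 4 of 20 regulators and 1 of 9 secreted products, INHBE, rose, where 0.804% of all genes did. The others did not pass in the probe set of highest mean. VEGFA, on the list of secreted products, rose by 0.61, 0.64 and 0.67 in 3 of its 4 probe sets. That of highest mean gave 0.40 (adjusted p = 0.0418), under the fold limit. Wild type SIRT6 raised 3 of the same 20 regulators and 0 of the 9 products over the same empty vector arrays. In that comparison 10 of 19775 genes rose. INHBE encodes a subunit of activin E and is a target of ATF4. It read 6.07, 6.39 and 6.14 in empty vector cells and 8.30, 8.47 and 8.37 in H133W cells, with untransfected cells lower still at 4.81, 4.92 and 5.13. The rise over empty vector was 2.18 (SE 0.13, adjusted p = 5.23e-09), or 4.54-fold. Empty vector itself raised INHBE over untransfected cells by 1.25 (adjusted p = 0.000205), in a comparison where 0.0746% of named probe sets rose. In contrast CRYAB and HSPA6 differed by 0.02 and −0.04 between empty vector and untransfected cells.

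Of the 4 regulators, PPP1R15A (GADD34), the phosphatase subunit that reverses eIF2α phosphorylation, went from 6.90, 7.04 and 7.04 to 8.19, 8.20 and 8.22, a rise of 1.21 (SE 0.0761, adjusted p = 7.16e-09). ATF3, a stress-induced transcription factor, went from 9.19, 9.38 and 9.36 to 10.43, 10.36 and 10.46 (1.10, SE 0.0789). CHAC1, which degrades glutathione, went from 6.76, 7.24 and 7.16 to 8.07, 8.19 and 8.15 (1.08, SE 0.13). In these 3 genes every H133W array lay above every empty vector array. CHAC1 had also risen by 1.06 between untransfected and empty vector cells (adjusted p = 0.000756). DDIT3, which encodes CHOP, rose by 0.81, and SESN2, a stress-induced regulator of mTORC1, by 0.63 in its dimmer probe set. ATF4, whose protein is controlled mainly at translation, read 12.86, 12.82 and 12.87 in empty vector cells and 12.92, 12.91 and 12.89 in H133W cells, a difference of 0.06 (adjusted p = 0.656). TRIB3, a target and inhibitor of ATF4, reached an adjusted p of 0.00276 but at 0.52 stayed under the fold limit. ATF4 and TRIB3 were named after their values were seen.

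Little of this extended to amino acid supply or to the endoplasmic reticulum. Of 19 genes of amino acid synthesis and transport only CTH, which makes cysteine from cystathionine, rose, from 8.55, 8.59 and 8.40 to 9.56, 9.44 and 9.34 (0.93, SE 0.0820). ASNS, asparagine synthetase and a standard ATF4 target that was chosen after its values were seen, differed by 0.16 (adjusted p = 0.12). None of 17 cytosolic tRNA synthetases passed in the probe set of highest mean, although dimmer probe sets of CARS1 (0.82 and 0.76) and TARS1 (0.59) rose. None of 20 ER chaperones and genes of the unfolded protein response passed, the largest differences being 0.23 for both ERN1, the sensor IRE1, and HERPUD1, an ER degradation factor. HSPA5 (BiP), the main ER chaperone, also added after its value was seen, differed by −0.08 (adjusted p = 0.753).

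The letters TGATGNAAT, an element to which ATF4 binds with partners of the C/EBP family, were held by 279 of the 27305 promoters (1.02%), by 103 of the 15384 of measured genes (0.67%) and by 2 of the 202 of upregulated genes (0.99%). The 2 were TARS1 and FUT1, which encodes the fucosyltransferase that makes the H blood group antigen. FUT1 was named for this match after its values were seen. Its level went from 10.26, 10.13 and 10.31 to 11.13, 11.12 and 11.18 (0.91, SE 0.0930). The bases around its match, positions −119 to −111, on the minus strand, chr19:48755439-48755507, are shown beside those of HSPA6 with the element in capitals.
FUT1: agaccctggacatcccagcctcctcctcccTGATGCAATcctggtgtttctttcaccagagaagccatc
The looser letters TGATGNNAT were held by 3.46% of all promoters and 2.29% of those of measured genes. Of those of upregulated genes 6 of 202 held them (2.97%), ATF3 among them. On the lists, TGATGNAAT was held by 0 of 18 promoters of integrated stress response regulators and 0 of 14 of amino acid genes. Of 7 promoters of secreted products 1 held it, that of FGF21, which did not pass (0.59, adjusted p = 0.142). The looser letters were held by 1 of the 18, 0 of the 14 and 2 of the 7.

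Immediate early genes, which cells turn on within minutes of many signals, rose in 5 of 29 cases, and 24 did not pass. Over all genes 0.804% rose. MAFF, a small MAF transcription factor, went from 5.43, 5.53 and 5.56 to 7.14, 7.04 and 6.90 (1.52, SE 0.15, adjusted p = 3.34e-06). GADD45B (0.77) and CSRNP1 (0.66) rose as well. KLF10 (0.62) did not pass without empty vector replicate 2 or 3. ZFP36 (0.61), which destabilises cytokine transcripts, passed only when the array left out was H133W replicate 1 or empty vector replicate 2. Of 10 phosphatases of MAP kinases DUSP8 rose by 0.87 (SE 0.0843), from 6.67, 6.62 and 6.64 to 7.61, 7.44 and 7.48, and DUSP10 by 0.63, a call that was lost without any of 4 of the 6 arrays, among them empty vector replicate 2. The long noncoding RNA PVT1, the neighbour of MYC, went from 7.04, 7.31 and 7.44 to 8.66, 8.76 and 8.77 (1.46, SE 0.11).

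The study asked about NFκB, and of 27 genes of this pathway and its targets 2 rose in unstimulated H133W cells, none fell and 25 did not pass. The share that rose among all genes was 0.804%. TNF, the cytokine itself, read 4.26, 3.43 and 3.97 in empty vector cells and 5.03, 4.65 and 5.18 in H133W cells, low levels that did not overlap (1.06, SE 0.20, adjusted p = 0.00403). RELB, an NFκB subunit, read 5.06, 5.71 and 5.15 against 6.34, 6.10 and 6.15 (0.89, SE 0.20). RELB passed only when the array left out was replicate 2 of either group. CXCL8, the chemokine IL-8, at 0.58 (adjusted p = 0.00495), was just under the fold limit and was named after its value was seen. None of 25 interferon-stimulated genes passed, and IFIT1 (−0.55) and IFIT2 (0.51) had the largest differences.

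Chromatin genes gave scattered rises. Of 42 replication-dependent histone genes, whose transcripts normally end in a stem-loop without a poly(A) tail, 4 rose and 38 did not pass, with a median of −0.037. All genes together had a median of −0.035, and 0.804% of them rose. H4C8 went from 4.70, 5.03 and 4.35 to 6.71, 6.42 and 6.60 (1.88, SE 0.16, adjusted p = 7.69e-07), and H2AC6 from 8.59, 8.46 and 8.58 to 10.25, 10.08 and 10.25 (1.65, SE 0.0888, adjusted p = 1.02e-09). H3C6 (0.87) and H4C11 (0.68) were the others, the last lost without H133W replicate 3 or empty vector replicate 2. Histone genes of a class share nearly all their coding sequence, so that the probe sets may not separate them. The 42 were read by probe sets that name 1 gene, and probe sets that name several histone genes were not counted. Among the latter, probe sets shared by H4 genes rose by 1.31 and 0.63, and that of H2BC11 and H2BC8 rose by 0.90. How many others of this kind did not pass was not counted. Of 24 lysine demethylases KDM6B, which removes methyl groups from lysine 27 of histone H3, went from 9.26, 9.26 and 9.48 to 10.37, 10.27 and 10.46 (1.03, SE 0.11). PHF21B, a relative of the LSD1 partner PHF21A, went from 5.82, 6.02 and 6.05 to 7.73, 7.70 and 7.75 (1.77, SE 0.0817), the only one of 17 genes around LSD1, CoREST and REST to pass in the probe set of highest mean. DNMT3A, which methylates DNA de novo, rose by 0.64 among 8 DNA methyltransferases and TET enzymes.

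Zinc finger genes named ZNF, many of which encode repressors with a KRAB domain, rose in 11 of 466 cases (2.36%), and none fell. For all genes the share was 0.804%. ZNF79 went from 7.60, 8.05 and 7.83 to 8.92, 8.90 and 8.83 (1.06, SE 0.12), and ZNF34 (0.86), ZNF473 (0.82), ZNF211 (0.82) and the pseudogene ZNF767P (0.81) followed. On chromosome 19, where most KRAB genes lie in clusters, 7 of 220 rose (3.18%), while 17 of all 1320 measured genes of that chromosome did (1.29%). By kind of gene, 134 of 16520 protein-coding genes rose (0.811%), 13 of 2657 long noncoding RNAs (0.489%) and 11 of 423 transcribed pseudogenes (2.60%).

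Among 37 splicing regulators 5 rose in the probe set of highest mean, against 0.804% of all genes, none fell and 32 did not pass. By any probe set 11 of the 37 rose, against 1.31% of all genes. ESRP1, which directs splicing in epithelial cells, went from 4.70, 4.71 and 4.80 to 6.05, 5.88 and 5.92 (1.21, SE 0.18, adjusted p = 0.000441). NKTR (0.86), CCNL1 (0.83) and RSRC2 (0.70), factors with domains rich in arginine and serine, and PTBP2 (0.63), the neuronal form of the polypyrimidine tract binding protein, rose too. RSRC2 was bright and even, at 10.16, 10.31 and 10.16 against 10.91 on each H133W array. PSPC1, a paraspeckle protein, rose by 1.22 and 1.15 in dim probe sets but read 9.45, 9.37 and 9.48 against 9.33, 9.37 and 9.34 in its brightest (−0.09). SNHG17, a host gene of snoRNAs, went from 10.65, 10.82 and 10.81 to 11.65, 11.63 and 11.69 (0.90, SE 0.0573). Of 15 such hosts no other passed in the single-gene probe set of highest mean, and 2 rose by any single-gene probe set. Probe sets that name a host together with its snoRNAs were not counted. Among these, those of SNHG12 (1.46), SNHG8 (0.85) and SNHG15 (0.83) rose.

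Some genes best known from neurons rose as well. Of 41 listed neuronal genes 11 rose, none fell and 30 did not pass, where 0.804% of all genes rose. The list was written with earlier results of these data known, so that its count is a description only. SULT4A1, a sulfotransferase of brain, went from 6.69, 6.75 and 6.79 to 7.76, 7.70 and 7.81 (1.02, SE 0.0907, adjusted p = 1.14e-06), and CAMK2N2, an inhibitor of calmodulin kinase, from 5.73, 5.99 and 5.89 to 6.55, 6.85 and 6.72 (0.83, SE 0.17). ERC2 (0.77), of the presynaptic active zone, CELSR3 (0.73), a cadherin of axon guidance, and CACNA2D3 (0.73), a calcium channel subunit, rose likewise. Their levels stayed moderate, under 8 in each H133W array of these 5 genes. Of 32 neural and endocrine transcription factors 7 rose and 1 fell. INSM2 went from 3.87, 3.86 and 3.82 to 5.45, 5.32 and 5.27, a 2.82-fold rise. NR2E1 (TLX), of neural stem cells, rose by 0.92, the epithelial repressor OVOL2 by 0.88, the NOTCH effector HEY2 by 0.73 and ZIC5, a zinc finger factor of the neural tube, by 0.66. MEOX2, a mesodermal homeobox factor, fell from 6.61, 6.61 and 6.58 to 6.06, 5.93 and 6.03 (−0.59, SE 0.13), and did not pass without H133W replicate 2.

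Cilia and their axoneme contributed 8 rises among 133 genes in the probe set of highest mean, against 0.804% of all genes, with none falling. By any probe set 14 of the 133 rose, against 1.31% of all genes. ODAD4, which docks the outer dynein arms, went from 5.96, 5.90 and 5.80 to 7.12, 7.19 and 7.11 (1.25, SE 0.12), and CFAP69 from 7.35, 7.48 and 7.36 to 8.39, 8.50 and 8.48 (1.06, SE 0.10). RFX3, a transcription factor of ciliary genes, rose by 0.99, ROPN1L by 0.95 and CFAP53 by 0.77. Developmental signalling showed single members. HEY2 and MIB2 (0.70), a ubiquitin ligase of NOTCH ligands, rose among 30 NOTCH genes, SFRP4 (0.97), a WNT antagonist, and WNT2B (0.62, lost without empty vector replicate 2) among 44 WNT genes, and GLI1 (0.62) among 17 Hedgehog genes, which passed only when the array left out was H133W replicate 1 or empty vector replicate 2.

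Few genes of metabolism and the cell cycle passed. Of 31 genes of glycolysis and HIF1A targets, of which SIRT6 is a known repressor, PKLR, a pyruvate kinase, rose by 0.59, a call that 3 of the 6 left-out arrays ended. ALDOC, aldolase C, fell from 8.13, 8.29 and 8.35 to 7.73, 7.52 and 7.60 (−0.64, SE 0.13, adjusted p = 0.00828). None of 30 G2-M genes passed, and all 30 had differences below 0, from −0.42 to −0.02, with a median of −0.18 against −0.035 over all genes. TTK, a spindle checkpoint kinase, had the largest of them (adjusted p = 0.0411, under the fold limit). The 30 were read on the same 6 arrays and are not independent observations. Other lists leaned too, with 49 of 56 ribosomal proteins and 34 of 44 WNT genes below 0, and 321 of 466 ZNF genes above 0. None of 33 G1-S genes (median 0.0208), 28 genes of double-strand break repair (0.0338), 17 p53 targets (0.0095), 16 genes of the BCL2 family (−0.0311) or 56 ribosomal proteins (−0.0212) passed in the probe set of highest mean.

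**Figure D3:**
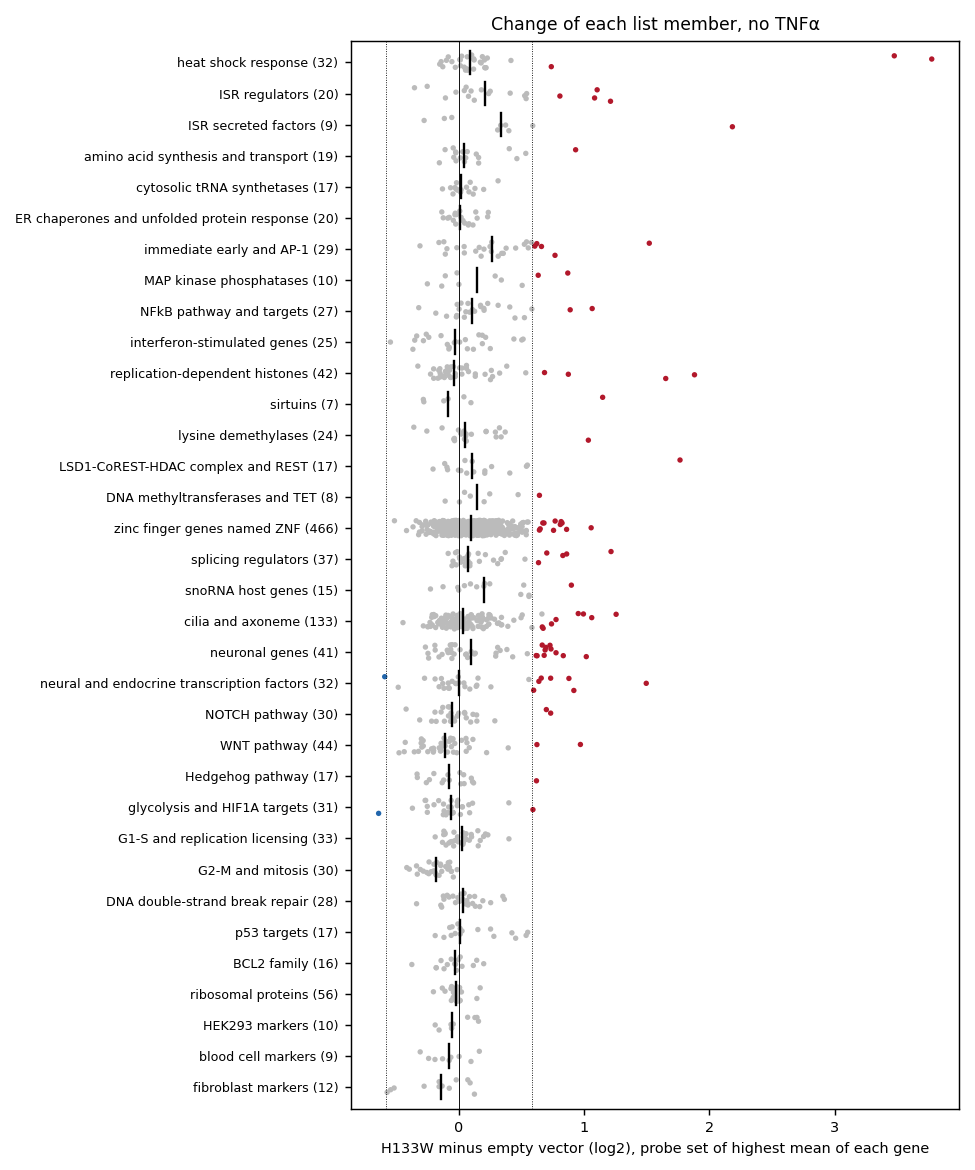
Difference between H133W and empty vector cells (log2, horizontal axis) of each gene of the 34 lists, by the probe set of highest mean, with the number measured in brackets. Red points rose, blue points fell, grey points did not pass, black bars are medians, and dotted lines mark 1.5-fold; medians lie near 0 in most lists, the changed members lie to the right, and G2-M lies wholly left of 0.

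Over the 34 lists, 74 of 1349 measured genes rose and 2 fell, where 0.804% of all genes rose and 0.0607% fell. The lists were written with earlier results of these data known, so that these counts are descriptions. Of the 159 genes that rose by the probe set of highest mean 85 were on no list. Without empty vector replicate 2 the heat shock count stayed at 3, that of the integrated stress response regulators went from 4 to 6, and those of the immediate early genes, MAP kinase phosphatases and histones from 5 to 4, 2 to 1 and 4 to 3. The NFκB count went from 2 to 3, that of the genes around LSD1, CoREST and REST from 1 to 2, that of the p53 targets from 0 to 1, that of the WNT genes from 2 to 1 and that of the sirtuins from 1 to 0.

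The falls were smaller and rested more on single arrays. OR51E1, an olfactory receptor, fell most, from 5.49, 5.29 and 5.63 to 4.68, 4.32 and 4.11 (−1.10, SE 0.23, adjusted p = 0.00866), and did not pass without H133W replicate 3. The endothelin receptor EDNRB went from 5.45, 5.49 and 4.89 to 4.54, 4.34 and 4.35 in the probe set that fell (−0.86). TLR3, a receptor for double-stranded RNA, went from 5.63, 5.45 and 5.69 to 4.90, 4.95 and 4.71 (−0.73) in 1 of its 3 probe sets, and another gave −0.20. SYNE1, a nuclear envelope protein, fell by −0.86 in 1 of its 5 probe sets, and another gave 0.44. The calls of EDNRB, TLR3 and SYNE1 were each lost without H133W replicate 3 and without 2 or more of the other arrays. QKI, an RNA-binding protein, fell by −0.74 in 1 of its probe sets and passed with any 1 array left out.

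Different probe sets of a gene often disagreed. Of 291 genes with at least 1 changed probe set, 76 had only that probe set, 10 of the other 215 had all of them changed, and in 15 the probe sets differed by over 1 log2 unit. In the remaining 205 of the 215 at least 1 probe set did not pass. Many genes given above as risen are among them, for example CAMK2N2 (−0.0177), OVOL2 (0.09), SFRP4 (0.19) and H3C6 (0.0073). The same was so in WNT2B (−0.30), DNMT3A (−0.19), MIB2 (−0.15), PKLR (−0.13), CFAP69 (−0.01) and ZNF473 (0.07). In MAFF and ESRP1 the other probe set gave 0.58, just under the fold limit. For MEOX2, given as fallen, the other probe set read −0.0035. KDM6B ranged from −0.08 to 1.12. POLB, a DNA repair polymerase, rose by 1.45 and 0.95 in dim probe sets with levels between 2.72 and 4.98 on these 6 arrays, and the exonuclease XRN1 rose by 1.22 in a probe set that read 3.52, 3.81 and 3.19 against 4.75, 4.72 and 4.71.

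H133W and wild type SIRT6 cells were compared directly, which uses no empty vector array and sets 2 transfected forms of the same protein side by side. The paper reports both proteins on Western blots. Whether they were expressed to a like degree was not tested here. No sirtuin passed between these cells by the probe set of highest mean. H133W cells had 49 transcripts higher (0.114%) and 7 lower (0.0163%). CRYAB was higher by 3.30 (SE 0.0829, adjusted p = 2.23e-15), HSPA6 by 2.93 (SE 0.15), INHBE by 1.65 (SE 0.13), PHF21B by 1.11 (SE 0.0817) and H4C8 by 1.04 (SE 0.16). INSM2 (1.03), CFAP69 (0.96) and H2AC6 (0.92) followed. PPP1R15A (0.59, adjusted p = 0.000638) and ZFAND2A (0.54, adjusted p = 0.000665) reached the p but only the first the fold limit. CHAC1 differed by 0.34 (adjusted p = 0.4), where its own differences from empty vector were 1.08 in H133W and 0.74 in SIRT6 cells, and MAFF by 0.50 (adjusted p = 0.211). SIRT6 and H133W cells share the empty vector arrays as their control, so that these last pairs of values are given side by side only. Over that control wild type SIRT6 raised 10 of 19775 genes by the probe set of highest mean. On the lists these rises took in 3 of the 20 integrated stress response regulators. They also took in 1 each of the immediate early genes, MAP kinase phosphatases, histones, lysine demethylases and genes around LSD1, CoREST and REST. Lower in H133W than in SIRT6 cells were OR51E1 (−1.02), RAB2A (−0.70 in 1 probe set), OR51E2 (−0.69), BRINP2 (−0.64), ALDOC (−0.63), FGFBP1 (−0.63) and TSPAN2 (−0.59). OR51E2 read 6.62, 6.69 and 6.81 in empty vector, 6.85, 6.72 and 7.06 in SIRT6 and 6.26, 6.28 and 6.03 in H133W cells, with no overlap between the last 2 groups.

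**Figure D4:**
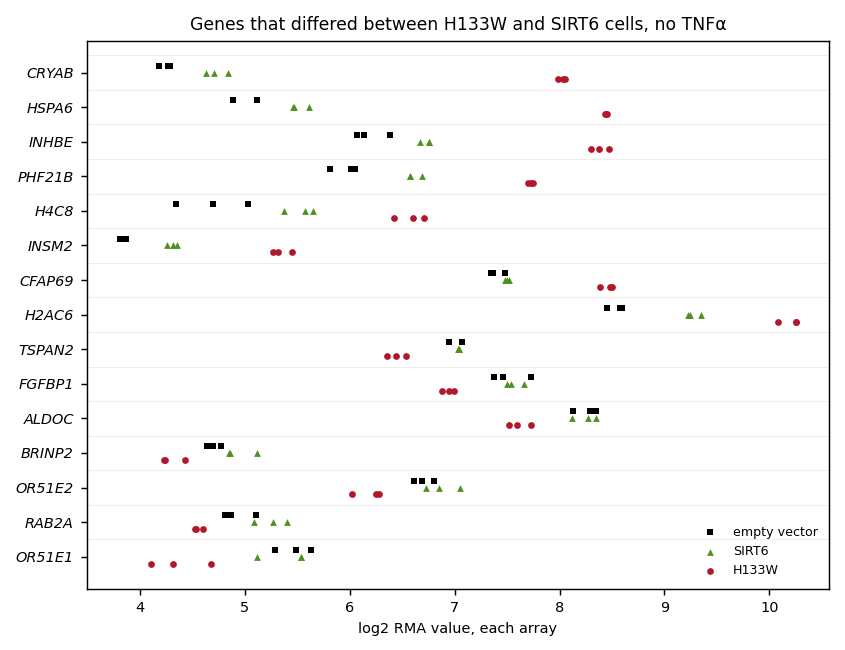
Log2 RMA value (horizontal axis) on each array of empty vector (squares), SIRT6 (triangles) and H133W cells (circles), unstimulated, for the 15 genes named as differing most between H133W and SIRT6. The H133W arrays of CRYAB and HSPA6 lie far to the right of the SIRT6 arrays, and those of the 7 lower genes lie left of them.

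The same comparison was available in 6 other arrays, of H133W and empty vector cells stimulated with 10 ng/ml TNFα for 4 h by the paper's methods and 1 h by the design text of the series. There H133W upregulated 514 transcripts (1.20%) and downregulated 146 (0.34%). Of the 338 transcripts that rose in unstimulated cells 208 rose with TNFα as well, which is 61.5% of the first list and 40.5% of the second, and 331 had a difference above 0 (49.0% of all named probe sets did). Their median was 0.69 with TNFα and 0.75 without. Of the 31 that fell only 3 fell with TNFα (9.68% and 2.05% of the lists), and their median was −0.30, although 28 were below 0. H133W + TNFα replicate 3 had a β-actin difference of 3.03 and a weight of 0.0844, the lowest of the 24 arrays. Without it the count of rises with TNFα was 369, of which 214 were among the 338, and that of falls 32, of which 2 were among the 31.

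CRYAB read 3.90, 3.93 and 4.09 in empty vector cells with TNFα and 7.49, 7.38 and 7.29 in H133W cells with TNFα, a rise of 3.41. HSPA6 read 4.80, 4.68 and 4.98 against 8.62, 8.70 and 9.41 (4.09), the highest being replicate 3. INHBE rose by 2.31 and PHF21B by 2.20. In each of these 4 genes the H133W arrays with TNFα all lay above the empty vector arrays with TNFα. TNF behaved otherwise, at 8.40, 8.51 and 8.36 against 8.68, 8.43 and 7.98 (−0.06), levels far above those without TNFα and overlapping between the groups. OR51E1, whose levels were lower with TNFα than without in both kinds of cell, read 3.31, 3.06 and 3.54 against 3.54, 2.97 and 3.03 (−0.12).

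**Figure D5:**
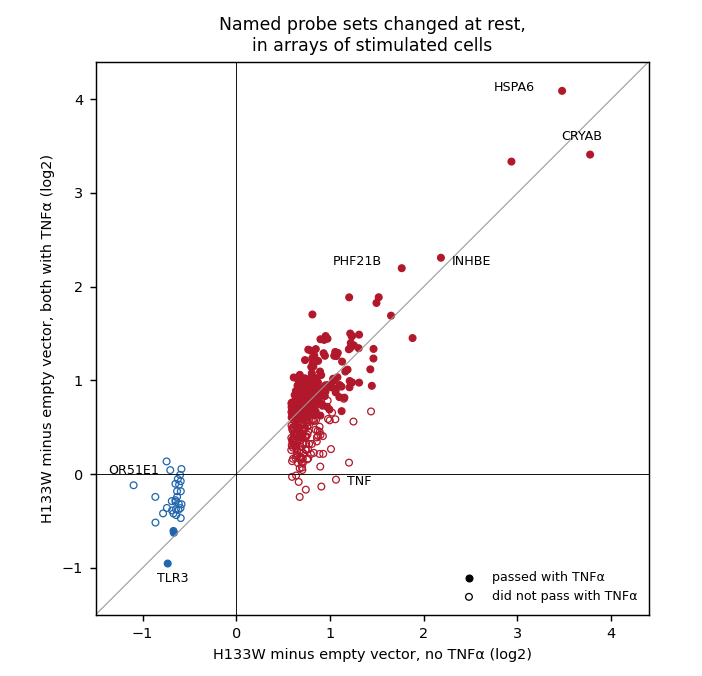
Difference between H133W and empty vector cells with TNFα (log2, vertical axis) against that without TNFα (log2, horizontal axis) for the 369 probe sets changed without TNFα, from separate arrays. Filled points passed with TNFα, the diagonal marks equal differences, and rises (red) lie mostly along it while falls (blue) lie nearer 0 on the vertical axis than on the horizontal.

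Whether the effect of H133W differed between stimulated and unstimulated cells was tested as an interaction, and 2 probe sets passed (0.00466%), with 3724 at an unadjusted p under 0.05. IER3, an inhibitor of apoptosis and target of NFκB, read 8.92, 8.93 and 9.11 in empty vector and 9.60, 9.53 and 9.57 in H133W cells without TNFα, and 11.85, 11.84 and 11.89 against 11.79, 11.67 and 11.67 with it. The effect of H133W on IER3 was thus 0.58 without and −0.15 with TNFα, a difference of −0.73 (SE 0.10, adjusted p = 0.0192). CALCB, which encodes β-CGRP, read 9.02, 9.02 and 9.06 against 9.64, 9.68 and 9.57 without TNFα and 10.53, 10.52 and 10.52 against 10.56, 10.45 and 10.46 with it, effects of 0.59 and −0.03 that differed by −0.63 (SE 0.0850, adjusted p = 0.0192). Without H133W + TNFα replicate 3 the differences were nearly as large, −0.71 (SE 0.11) for IER3 and −0.61 (SE 0.0873) for CALCB, with an adjusted p of 0.0618 for both. For TNF the interaction was −1.12 (SE 0.28) and for OR51E1 0.98 (SE 0.32), and neither passed (adjusted p = 0.567 for both).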

How the data were processed

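The 24 labelled columns of the deposited table were used, and 0 columns were without a sample. The deposited log2 values of 54675 probe sets, made by the authors from Affymetrix HG-U133 Plus 2.0 arrays with the RMA method of ArrayStudio, ran from 1.52 to 13.75. RMA summarises the probes of a set and equalises the arrays' distributions, so that only relative levels remain. Replicates are labelled biological, and their number, 3 per group, limits the precision. Names came from the platform's gene table (42898 named probe sets, 41097 with 1 gene, 1801 with several, 11777 unnamed).

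A mean for each of 8 groups was fitted to the 24 arrays with limma 3.58.1 in R 4.3.3, with the Benjamini-Hochberg adjustment made over all probe sets of each comparison. Genes in lists were read by their single-gene probe set of highest mean. The members and lists were chosen with earlier results of these data known, so that list counts are descriptions. Genes were named by a rule: the largest rises and falls with non-overlapping arrays, up to 5 passing members of each list or 2 where none passed, the 8 largest differences each way from SIRT6, interactions, and genes whose probe sets disagreed by over 1 log2 unit. In data simulated for the comparison of H133W with empty vector, over 54675 probe sets, 45, 50, 48 and 50 of 50 changed 1.75-, 2-, 3- and 4-fold were called. Alternatives left out each array in turn or changed the model, normalisation, filter or thresholds. Promoters were from RefSeq (GRCh38.p14), 1 start per gene.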

Additional observations from a re-analysis of the deposited data

Results flagged for a closer look

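Of the results given above, 2 differed between conditions by a test of the difference itself, the interaction of H133W with TNFα. For IER3 the effect of H133W was lower with TNFα than without by −0.73, and for CALCB by −0.63, and both had 3 of 3 H133W arrays above the empty vector arrays without TNFα. Without H133W + TNFα replicate 3, whose β-actin difference was the largest of all arrays, the differences were −0.71 for IER3 and −0.61 for CALCB, nearly as large, and the adjusted p was 0.0618 for both.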

How the results depend on the processing

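The main count of 369 changed transcripts ran from 297 to 431 with each array left out, lowest without H133W replicate 3 and highest without empty vector replicate 3, and was 1496 (1001 up, 495 down) with no fold threshold. A plain linear model, the 6 arrays alone, a variance trend, array weights, leaving out dim probe sets, quantile normalising or median centring again and counting unnamed probe sets kept this total within 1.5 times, but the 31 falls became 50 with median centring (299 rises), 17 in the 6 arrays alone (295 rises) and 19 without dim probe sets (282 rises). The 56 transcripts that differed between H133W and SIRT6 became 102 with array weights and 37 to 42 with each H133W array left out, 37 being without H133W replicate 3. The 660 with TNFα became 401, and the 2 interactions 0, without H133W + TNFα replicate 3, an alternative chosen after seeing the data. With the replicate number as a block the main count was 362 (335 up, 27 down). Deviations of same-numbered H133W and empty vector arrays correlated at 0.0487, 0.132 and 0.107, and each array correlated best with its own number, a hint from the data only, so that the numbers were not taken to pair the arrays. Of 110 named genes followed, 83 changed, 54 of them in every alternative, and 0 reversed; 18 lost their call without H133W replicate 3 and 15 in the fit on 6 arrays.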
